A study of Mus musculus with 4 samples.

Results

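The genes described here are 10 markers of spermatogonia, the mitotic male germ cells: Zbtb16, Sall4, Gfra1, Uchl1, Kit, Sohlh1, Sohlh2, Stra8, Egr4 and Crabp1. They were taken by symbol from a table of RNA sequencing values in whole mouse testis, where each has a single entry, and are 10 of 26068 entries with a gene name. Libraries came from testes of 24-day-old male B6D2F1 mice, 2 from wild type mice and 2 from mice with the Adad2 knockout on both alleles (homozygous). ADAD2 is an RNA-binding protein of male germ cells. The labels do not say how the allele was made or whether the replicates are separate animals, so p-values cover the spread among these libraries alone, and that spread may be technical. Levels are given as log2 RPKM, reads per kilobase of gene and per unit of library depth, so they can be set side by side between genes.

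Spermatogonia sit at the base of the seminiferous tubule and divide to renew the stem cell pool and to feed spermatogenesis. The undifferentiated cells respond to glial cell line-derived neurotrophic factor (GDNF) through GFRA1 and carry the transcription factors ZBTB16 and SALL4. Retinoic acid moves them into differentiation, marked by the receptor KIT and the transcription factors SOHLH1 and SOHLH2, and later switches on STRA8 for entry into meiosis. At the age sampled, stem cells, differentiating spermatogonia, spermatocytes and early spermatids are present together.

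The libraries held an estimated 28900000 to 36700000 reads, and the 10 genes held 127 to 2490 estimated reads per library, for a counting error of at most 8.87% of a value. Adad2 itself fell 2.07-fold in the knockout, from 4.66 and 4.47 to 3.73 and 3.30 log2 RPKM (limma adjusted p = 0.00604). Of 13414 genes tested, 8.36% were called, 7.15% lower and 1.22% higher in the knockout (limma, Benjamini-Hochberg adjusted p under 0.05). Called lower were 19 of 22 tested markers of round and elongating spermatids, the haploid cells, whose summed level was 1510 and 1400 RPKM in wild type and 340 and 260 RPKM in the knockout. The smallest p of that list belonged to Tssk6, Actl7a and Tssk2, with log2 changes of -3.44, -1.92 and -2.58. In bulk tissue, fewer cells of a type and less RNA per cell cannot be told apart. The median log2 change over all genes tested was 0.14, and the values of the spermatogonial genes are read beside it. Scaling the libraries to equal medians of Sertoli cell markers lowered every change by 0.40 and gave 26 genes higher and 3001 lower, in place of 163 and 959. The middle one of the 23 markers was Espn in all 4 libraries, so that shift is the change of Espn alone, which is larger than the median change of the markers, 0.29. A second scaling, added after the data were seen, made the markers' median deviation from their own means equal in all libraries. It lowered every change by 0.29 and gave 36 genes higher and 1926 lower. Both counts also moved with the libraries used, to 0 and 0 without wild type replicate 1, 22 and 288 without wild type replicate 2, 405 and 1308 without knockout replicate 1, and 494 and 1056 without knockout replicate 2.

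None of the spermatogonial genes passed the test. Of the 9 that reached the filter of a mean of 1 RPKM, 0 were called by limma, with or without its intensity trend and robust estimation (8.36% of all genes tested were called). Without knockout replicate 1, which leaves a lone knockout library, the log2 changes of Kit and Sohlh1 were 0.48 and 0.61. With all libraries, unadjusted p was under 0.05 in 5 of the 9, all higher in the knockout (15.6% of all genes tested were higher at that level). In either direction, 3616 of the 13414 genes tested had an unadjusted p under 0.05. The median log2 change of the 9 was 0.33, beside 0.14 over all genes tested. All 9 had a change above 0, as did 71.8% of all genes tested, but 8 of the 9 were below 0 once Sertoli cell medians were set equal (the shift of 0.40), and 4 of the 9 once Sertoli cell deviations were (the shift of 0.29). Knockout and wild type libraries did not overlap, with the knockout higher, in 7 of the 10 genes, against 46.4% of all genes tested. They did not overlap, with the knockout lower, in 1, Gfra1, against 16.8% of all genes tested. The changes ran from -0.33 to 0.45. In a simulation of this design, 200 of 13414 genes were changed. Limma recovered 6% of log2 changes of 0.5 and 76% of changes of 1. Fewer genes changed there than were called in the data, which makes the adjusted threshold stricter, so the reach of the test here was not measured. In the data, a change of 0.40 was called in Espn but not in Egr4. With 2 libraries a group, the smallest two-sided p of an exact permutation test is 0.333.

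**Figure D1:**
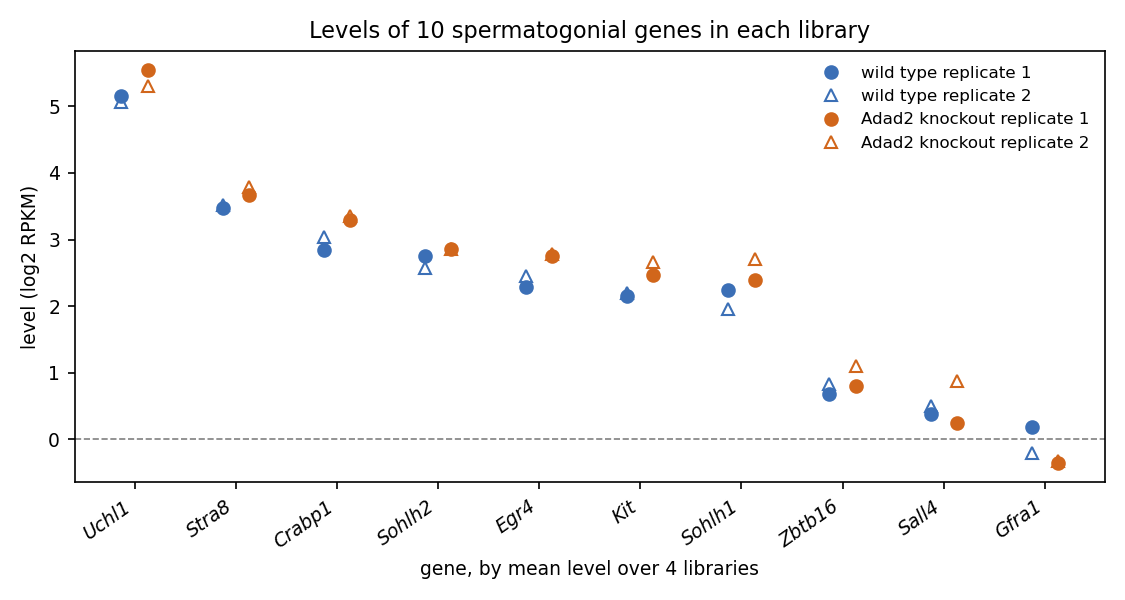
Level of each spermatogonial gene in log2 RPKM (vertical axis) in every library, with genes ordered by mean level; circles are replicate 1, triangles replicate 2, blue wild type and orange knockout. Uchl1 sits above 5 in every library and Gfra1 sits near or below 0, which is 1 RPKM, and the genotypes lie close together in every gene.

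The order of levels by mean was the same in both genotypes. Uchl1 led with a mean of 34.4 RPKM in wild type and 43.2 RPKM in the knockout, followed by Stra8 at 11.3 and 13.3 RPKM. Crabp1, Sohlh2, Egr4, Kit and Sohlh1 came next, between 7.69 and 4.33 RPKM in wild type. Kit and Sohlh1, neighbours in that order, overlapped in both genotypes. Zbtb16, Sall4 and Gfra1 were lowest, at 1.69, 1.37 and 1.01 RPKM in wild type and 1.96, 1.51 and 0.793 RPKM in the knockout. Zbtb16 and Sall4 overlapped in the knockout but not in wild type. The markers of undifferentiated cells other than Uchl1 were thus the 3 lowest of the 10 in both genotypes.

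Gfra1 encodes the GDNF co-receptor of stem cells and lies on the minus strand of chromosome 19 from 58310094 to 58530399 (mm9 coordinates, as for all gene positions here). It was at 0.19 and -0.20 log2 RPKM in wild type and at -0.35 and -0.32 in the knockout. Both knockout libraries lay below both wild type libraries, but by 0.12, and the wild type replicates were 0.39 apart. Its mean was below the filter, so it was not tested there. Fitted without a filter, the log2 change was -0.33 (SE 0.24, 95% confidence interval -0.92 to 0.26, limma adjusted p = 0.534). The change kept its sign with each library left out, between -0.13 without wild type replicate 1 and -0.52 without wild type replicate 2. A predicted gene on the opposite strand, Gm16277, overlaps the last 444 bases of Gfra1 and was looked up after the values of Gfra1 were seen. It was at 1.65 and 1.06 log2 RPKM in wild type and at 0.51 and -0.20 in the knockout (change -1.20, limma adjusted p = 0.0653). Use of strand in counting is not given in the sources used here, so reads of the shared stretch may not have been told apart, and the part of Gm16277 in the Gfra1 values was not tested. The bases before the Gfra1 start site are shown because they hold 3 E-boxes (CANNTG, the motif bound by basic helix-loop-helix factors such as SOHLH1), in capitals (RefSeq, GRCm38.p6, minus strand, chr19:58455399-58455648, printed 5′ to 3′).
Gfra1: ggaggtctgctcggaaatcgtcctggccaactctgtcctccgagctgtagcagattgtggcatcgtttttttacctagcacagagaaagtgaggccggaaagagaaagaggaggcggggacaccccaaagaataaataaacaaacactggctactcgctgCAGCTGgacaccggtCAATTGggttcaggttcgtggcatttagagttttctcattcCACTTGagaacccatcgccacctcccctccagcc
The motif reads the same on both strands, and 66.2% of 32851 promoter windows of 250 bases hold it at least once and 12.2% at least 3 times.

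Zbtb16 encodes a zinc finger repressor that stem cells need to renew, and lies on the minus strand of chromosome 9 from 48462416 to 48644050. It was at 0.68 and 0.83 log2 RPKM in wild type and at 0.81 and 1.11 in the knockout. Its groups overlapped, and its log2 change of 0.21 (SE 0.18, limma adjusted p = 0.456) was smaller than the gap of 0.31 between the knockout replicates. It was 0.05 without knockout replicate 2, 0.36 without knockout replicate 1 and 0.13 without wild type replicate 1. With Sertoli cell medians equal it was -0.20, and with deviations equal -0.083. Sall4, a zinc finger factor of undifferentiated and early differentiating cells, lies on the minus strand of chromosome 2 from 168573832 to 168593443. It was at 0.38 and 0.51 in wild type and at 0.24 and 0.88 log2 RPKM in the knockout. The wild type values of Sall4 lay between those of the knockout, whose replicates were 0.64 apart, the widest gap of the 10 genes. Its change was 0.11 (95% confidence interval -0.44 to 0.67, limma adjusted p = 0.758), and it was -0.20 without knockout replicate 2, 0.43 without knockout replicate 1, 0.05 without wild type replicate 1 and 0.18 without wild type replicate 2. It was -0.29 with Sertoli cell medians equal and -0.18 with deviations equal. Gm14261, a predicted gene on the opposite strand that overlaps Sall4 and was looked up later, had a mean of -3.10 log2 RPKM.

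Uchl1 encodes a ubiquitin hydrolase abundant in spermatogonia and neurons, and maps to the plus strand, chromosome 5 from 67067360 to 67078472. It was at 5.15 and 5.06 log2 RPKM in wild type and at 5.54 and 5.31 in the knockout, 35.5 and 33.3 against 46.7 and 39.8 RPKM. The groups did not overlap, and the knockout replicates were 0.23 apart. The log2 change was 0.33 (SE 0.12, 95% confidence interval 0.06 to 0.60, limma adjusted p = 0.133), and it was 0.21 without knockout replicate 1. With Sertoli cell medians equal it was -0.078, and with deviations equal 0.04. As deposited it was larger than the change of 86.7% of all genes tested. Gm16832, on the opposite strand and looked up later, overlaps the first 377 bases of Uchl1 at a level of 0.41 log2 RPKM (mean of 4 libraries). The relatives Uchl3, Uchl4 and Uchl5 had changes of 0.04, 0.08 and 0.08, none called.

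**Figure D2:**
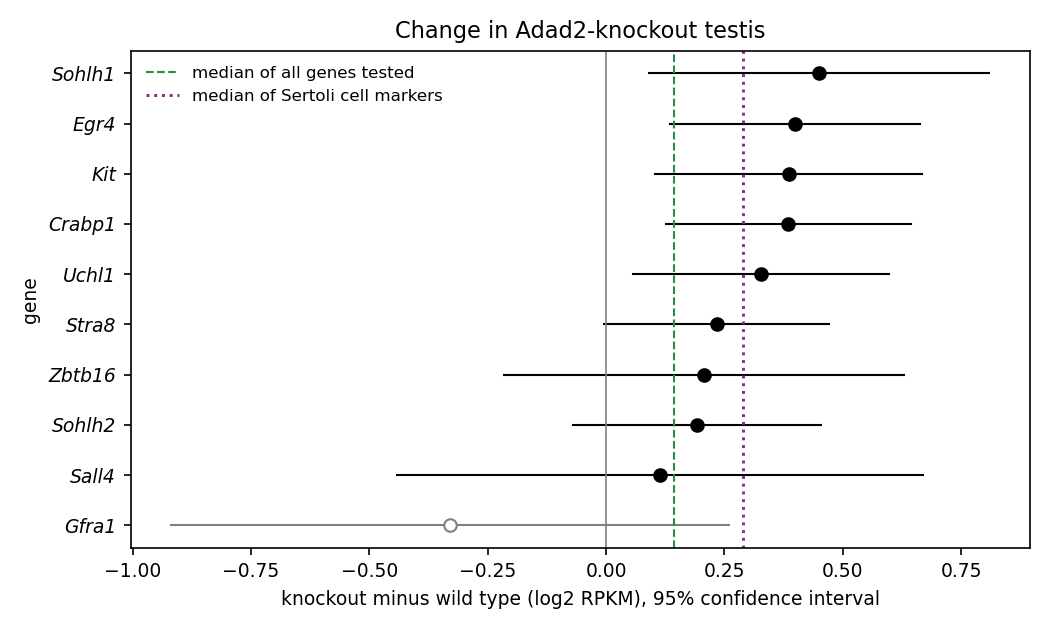
Knockout minus wild type in log2 RPKM (horizontal axis) for each gene, with the 95% confidence interval from limma as a line; filled points were tested, and the open grey point, Gfra1, was fitted without a filter; the dashed and dotted lines are the medians of all genes tested (0.14) and of Sertoli cell markers (0.29). Intervals of 5 tested genes lie above 0, and none of the 9 tested genes was called; with Sertoli cell medians equal, 8 of the 9 would lie below 0 (a shift of 0.40, the change of Espn), and 4 of the 9 with Sertoli cell deviations equal (a shift of 0.29).

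Among the genes of differentiating spermatogonia, Kit and Sohlh1 had changes of 0.39 and 0.45, at the 92.9th and 96.0th percentile of all genes tested. Kit, the receptor for stem cell factor, maps to the plus strand, chromosome 5 from 75970941 to 76052747. It was at 2.16 and 2.20 log2 RPKM in wild type and at 2.47 and 2.66 in the knockout, 4.48 and 4.60 against 5.54 and 6.34 RPKM. The wild type replicates were 0.04 apart and both knockout libraries lay above them, by at least 0.27. The change was 1.31-fold (SE 0.12 on the log2 scale, limma adjusted p = 0.102). Without knockout replicate 1 the log2 change was 0.48. With Sertoli cell medians equal it was -0.019 (limma adjusted p = 0.918), against 0.10 with deviations equal (limma adjusted p = 0.717). Spermatids make a shorter Kit transcript from an internal promoter, and the table gives 1 value per gene, so the forms were not told apart. KIT is also made by Leydig cells and mast cells. Of 12 Leydig cell markers 0 were called by limma, with a median change of 0.19. Unadjusted p was under 0.05 in 2 (Nr5a1, 0.33, and Fdxr, 0.33), beside 3616 of all 13414 genes tested. Hsd3b1 had a change of 0.30. The summed level of the 12 was 344 and 496 RPKM in wild type and 402 and 565 RPKM in the knockout. The mast cell markers Cma1, Cpa3, Tpsb2 and Mcpt4 were below 2 estimated reads in every library.

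Sohlh1 encodes a germ cell helix-loop-helix factor that activates Kit, and lies on the minus strand of chromosome 2 from 25698515 to 25702768. It was at 2.25 and 1.96 log2 RPKM in wild type and at 2.40 and 2.71 in the knockout. The groups were separated by 0.14, less than the gap between replicates of either genotype (0.30 and 0.32). The change was 1.37-fold, the largest of the 10 genes with all libraries (log2 change 0.45, SE 0.16, limma adjusted p = 0.125). It was 0.61 without knockout replicate 1. Without knockout replicate 2 it was 0.29, where Uchl1 at 0.44, Egr4 at 0.39 and Crabp1 at 0.35 were larger. Without wild type replicate 2 it was 0.30, where Crabp1 at 0.48, Egr4 at 0.48 and Kit at 0.41 were larger. The change of Sohlh1 was 0.04 (limma adjusted p = 0.825) with Sertoli cell medians equal and 0.16 with deviations equal. Its partner Sohlh2 maps to the plus strand, chromosome 3 from 54985950 to 55013879. Sohlh2 was at 2.76 and 2.57 log2 RPKM in wild type and at 2.86 in both knockout libraries, separated by 0.10. Its change of 0.19 (limma adjusted p = 0.288) lay at the 60.0th percentile of all genes tested and was -0.21 with Sertoli cell medians equal and -0.099 with deviations equal. It was 0.10 without wild type replicate 2. The level of Sohlh1 was below that of Sohlh2 in every library.

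The windows before the start sites of Sohlh1 and Kit are shown because SOHLH1 binds E-boxes, which are in capitals with any AGGTCA. Sohlh1 (RefSeq, GRCm38.p6, minus strand, chr2:25847249-25847498) held 5 E-boxes, of which 3 were CACGTG. The second CACGTG shares its first bases with the end of an AGGTCA.
Sohlh1: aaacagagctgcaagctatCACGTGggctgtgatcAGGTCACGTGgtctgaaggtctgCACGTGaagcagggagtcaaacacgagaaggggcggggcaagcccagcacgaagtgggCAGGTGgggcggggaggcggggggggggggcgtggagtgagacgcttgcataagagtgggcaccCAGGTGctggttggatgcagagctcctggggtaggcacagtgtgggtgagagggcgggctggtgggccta
Kit (plus strand, chr5:75574737-75574986) held no match.
Kit: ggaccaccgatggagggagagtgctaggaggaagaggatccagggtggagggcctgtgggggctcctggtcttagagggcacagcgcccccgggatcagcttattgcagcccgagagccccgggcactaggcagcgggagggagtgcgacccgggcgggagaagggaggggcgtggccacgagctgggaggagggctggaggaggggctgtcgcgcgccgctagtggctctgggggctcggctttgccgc
At least 5 E-boxes were in 1.15% of the 32851 windows, and at least 3 CACGTG in 0.0609%. CACGTG was present at least once in 6.02%. Windows were found for 8 of the 10 genes, and an E-box stood in 3 of them, Sohlh1, Sohlh2 and Gfra1, against 66.2% of the 32851 windows. A match is a description of the sequence and not a binding site.

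**Figure D3:**
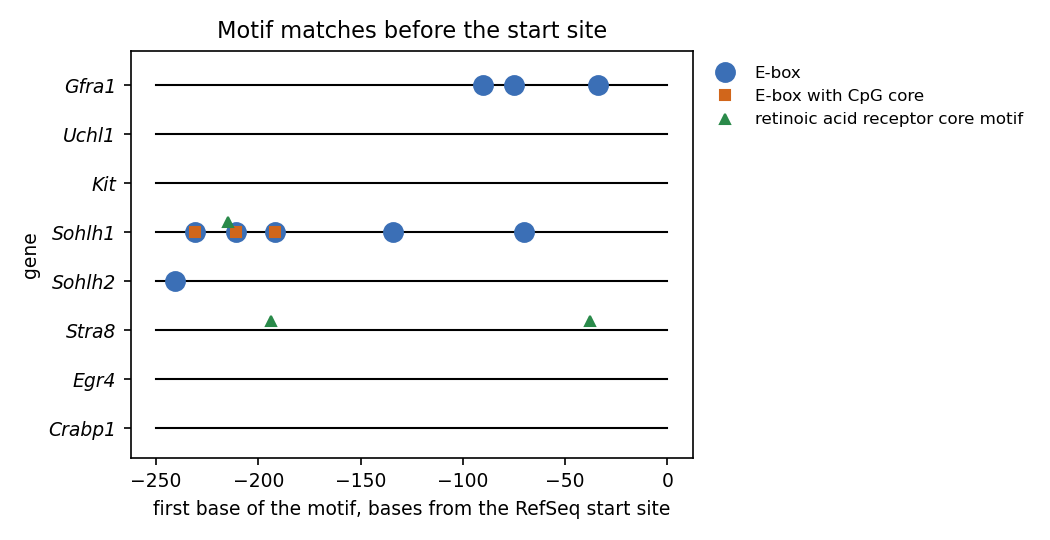
Position of motif matches in the 250 bases before the RefSeq start site (horizontal axis, in bases) of 8 genes, 1 line each. Sohlh1 carries 5 E-boxes, of which 3 have a CpG core, and Gfra1 carries 3 E-boxes. Stra8 carries 2 matches of AGGTCA, labelled as the retinoic acid receptor core motif.

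Stra8 and Crabp1 connect to retinoic acid. Stra8, which retinoic acid induces before meiosis, maps to the plus strand, chromosome 6 from 34870163 to 34889342. It was at 3.47 and 3.52 log2 RPKM in wild type and at 3.67 and 3.79 in the knockout. The replicates were close (gaps of 0.05 and 0.12) and the groups did not overlap. Its log2 change was 0.23 (95% confidence interval -0.0037 to 0.47, limma adjusted p = 0.19), at the 69.4th percentile of all genes tested, and was -0.17 with Sertoli cell medians equal and -0.056 with deviations equal. Crabp1, a cytosolic retinoic acid binding protein, maps to the plus strand, chromosome 9 from 54612555 to 54620917. It was at 2.84 and 3.04 log2 RPKM in wild type and at 3.29 and 3.36 in the knockout, 7.18 and 8.21 against 9.76 and 10.3 RPKM. Every knockout library of Crabp1 was above every wild type library by at least 0.25. The change was 1.31-fold (SE 0.11 on the log2 scale, limma adjusted p = 0.0812), and on the log2 scale -0.020 with Sertoli cell medians equal and 0.09 with deviations equal. The window before the Stra8 start site (plus strand, chr6:34920698-34920947) is shown for its 2 AGGTCA matches, the core motif of retinoic acid receptor elements, in capitals.
Stra8: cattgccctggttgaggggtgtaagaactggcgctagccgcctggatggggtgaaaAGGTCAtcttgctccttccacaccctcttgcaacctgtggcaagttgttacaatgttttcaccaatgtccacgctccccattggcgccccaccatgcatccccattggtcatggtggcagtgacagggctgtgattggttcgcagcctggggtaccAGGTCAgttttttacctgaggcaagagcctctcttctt
Searched on both strands, AGGTCA was in 14% of the windows, and at least 2 matches were in 1.36%. The 2 matches of Stra8 began 194 and 38 bases before the start site, and a match is not a binding site.

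Egr4, a zinc finger factor of the early growth response family needed for male fertility, lies on the minus strand of chromosome 6 from 85461125 to 85463583. It was at 2.29 and 2.45 log2 RPKM in wild type and at 2.76 and 2.78 in the knockout. The groups were separated by 0.31, the widest separation of the 10 genes, and the knockout replicates were 0.03 apart. The change was 1.32-fold (log2 change 0.40, SE 0.11, 95% confidence interval 0.14 to 0.66, limma adjusted p = 0.0779), the smallest p of the 10 genes, and it was -0.0050 with Sertoli cell medians equal and 0.11 with deviations equal. At an equal or larger change stood 831 genes, or 6.2% of those tested. Distance to Egr4 was taken between centred values over the 4 libraries, leaving out genes with a clone or predicted name. The closest of the rest were Eci1 (distance 0.0165), Nr2c2 (0.0219) and Plk2 (0.0243). Their log2 changes were 0.41, 0.42 and 0.38, near that of Egr4 because of the way they were chosen. That of Nr2c2 was called (limma adjusted p = 0.0471).

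**Figure D4:**
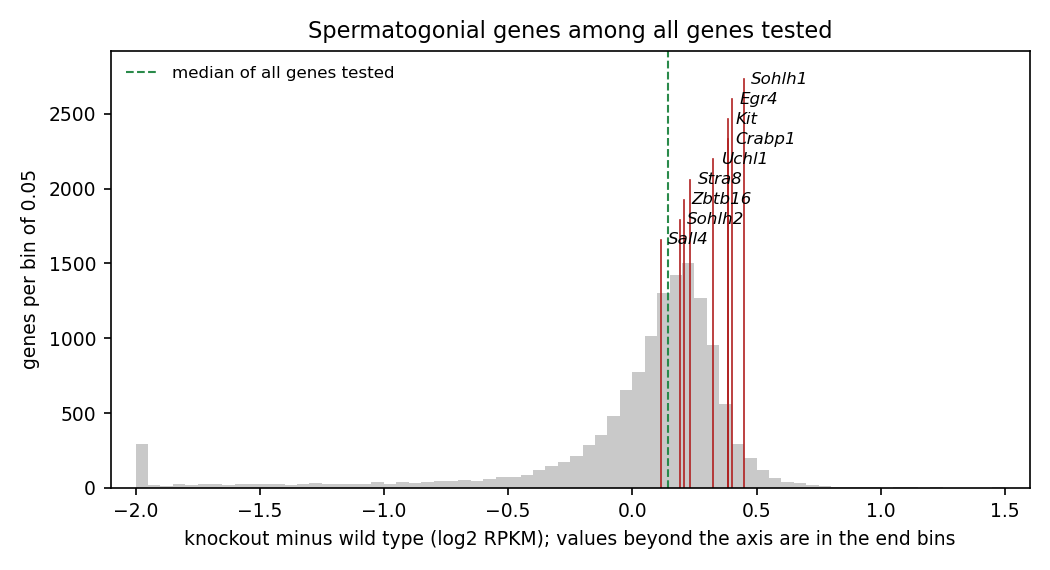
Number of genes (vertical axis) by knockout minus wild type in log2 RPKM (horizontal axis) over the 13414 genes tested, with the 9 tested spermatogonial genes as red lines and the median of all genes, 0.14, dashed. The red lines run from 0.11 to 0.45, inside the main peak and its upper edge; equal Sertoli cell medians would move the whole picture down by 0.40, and equal deviations by 0.29.

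Ratios between genes within a library do not change when each library is scaled by a single factor, though quantile normalization changes them. Of these ratios 8 were computed, chosen after the values were seen; 3 are given. The log2 ratio of Kit to Gfra1 was 1.97 and 2.40 in wild type and 2.82 and 2.99 in the knockout. That of Kit to Zbtb16 was 1.48 and 1.38 in wild type and 1.66 and 1.55 in the knockout. That of Stra8 to Kit was 1.31 and 1.32 in wild type and 1.20 and 1.13 in the knockout. In all 8 the genotypes did not overlap, and none was tested. The share among other pairs of genes was not computed, so this count cannot be judged. Kit, Stra8, Egr4 and Uchl1 were each set over Gfra1, so those ratios share its values. Libraries of one genotype also differed. Knockout replicate 2 was above knockout replicate 1 in 9 of the 10 genes, and in 44.1% of all genes tested. Wild type replicate 2 was above wild type replicate 1 in 6 of the 10, and in 55.1% of all genes tested.

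Other genes of undifferentiated spermatogonia were mostly low. Of 29 listed, 8 reached the filter, and 0 were called by limma, with 2 at an unadjusted p under 0.05 (3616 of all 13414 genes tested). Their median change was 0.26, and as deposited the knockout mean was higher in each of the 8, as in 71.8% of all genes tested. Of the 21 below the filter, 18 had a change above 0 and 3 below 0. In a fit without a filter, 1 of the 21 was called: Egr3, a zinc finger factor, fell 7.42-fold (limma adjusted p = 0.049). That fit called 97 higher and 1078 lower of all 26068 entries. Lin28a, an RNA-binding protein of undifferentiated cells, was at 1.45 and 1.29 log2 RPKM in wild type and at 1.69 and 1.87 in the knockout (change 0.41, limma adjusted p = 0.132). Taf4b, a transcription cofactor of germ cells, and Ddit4 had changes of 0.33 and 0.27, neither called. Ret, the signalling partner of GFRA1, stayed under 1 RPKM, at 0.437 and 0.299 RPKM in wild type and 0.413 and 0.509 RPKM in the knockout.

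Genes of differentiating spermatogonia and meiotic entry had a median change of 0.24. Of 27 tested, 1 rose, 1 fell and 25 were not called. Unadjusted p was under 0.05 in 7 of the 27, beside 3616 of all 13414 genes tested. Tex101, a germ cell surface glycoprotein, rose from 7.66 and 7.85 to 8.86 and 8.92 log2 RPKM (limma adjusted p = 0.000977). Rec8, a meiotic cohesin, fell from 3.66 and 3.58 to 2.57 and 2.08 log2 RPKM (limma adjusted p = 0.00316). Mki67, a marker of dividing cells, was at 3.31 and 3.21 in wild type and at 3.73 and 3.62 in the knockout (change 0.41, limma adjusted p = 0.0503).

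Ligands, receptors and enzymes around these genes showed no call. Their counts at an unadjusted p under 0.05 are read beside 3616 of all 13414 genes tested. Of 17 tested retinoic acid genes, 0 were called, with 3 at an unadjusted p under 0.05 and a median of 0.13. Cyp26b1, which degrades retinoic acid, had a change of 0.32 (limma adjusted p = 0.108) and the receptor Rxra -0.35 (0.172). Of 19 tested genes of GDNF and KIT signalling, 0 were called, with 2 at an unadjusted p under 0.05 and a median of 0.21. Kitl, the KIT ligand made by Sertoli cells, was at 2.45 and 2.48 log2 RPKM in wild type and at 2.63 and 2.84 in the knockout (change 0.27, limma adjusted p = 0.188). The adaptor Frs2 and the kinase Src had changes of 0.32 and 0.33. Gdnf itself was at 0.32 and 0.425 RPKM in wild type and at 0.337 and 0.571 RPKM in the knockout, below the filter. Of 14 partners of ZBTB16 and SALL4, 0 were called, with 2 at an unadjusted p under 0.05 and a median of 0.14; Zbtb7a and Mta2 had changes of 0.39 and 0.19. Of 10 relatives of the spermatogonial genes, 0 were called, with 1 at an unadjusted p under 0.05 and a median of 0.08. Gfra2, a co-receptor related to Gfra1, was at 1.20 and 1.12 log2 RPKM in wild type and at 0.77 and 0.53 in the knockout (change -0.51, limma adjusted p = 0.117). Pdgfra, a receptor kinase related to KIT, and Tcfl5, a helix-loop-helix factor, had changes of 0.26 and 0.09.

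**Figure D5:**
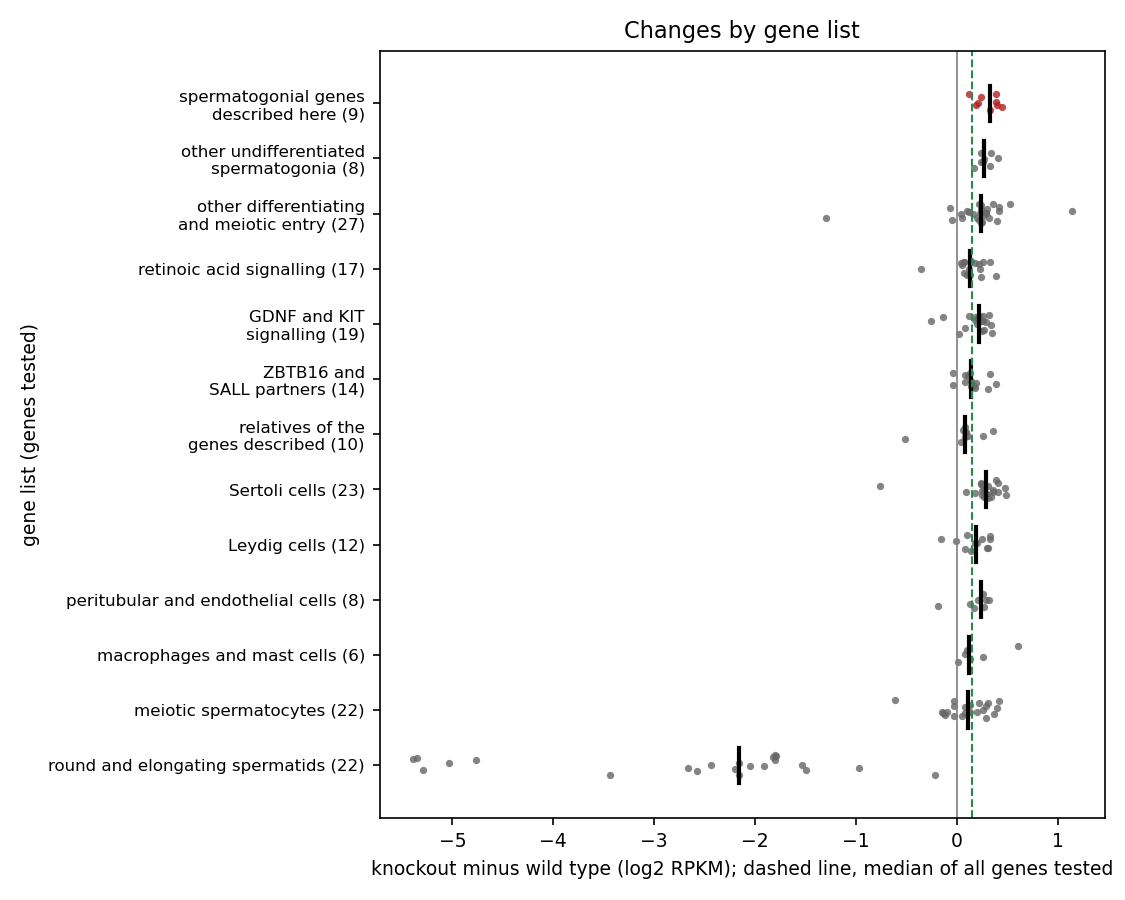
Knockout minus wild type in log2 RPKM (horizontal axis) for every tested gene of each list, with list medians as black bars and the median of all genes dashed. The spermatogonial genes (red, median 0.33) and the Sertoli cell list (median 0.29) lie above 0 for the most part, and the spermatid list lies apart at a median of -2.16; all points would move down by 0.40 with Sertoli cell medians equal and by 0.29 with deviations equal.

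Markers of other cell types are given for comparison, and their part in the values of the spermatogonial genes was not tested. Sertoli cells, the somatic nurse cells of the tubule, had 23 tested markers, of which 3 rose (Mro, 0.47, Espn, 0.40, and Defb36, 0.41). Unadjusted p was under 0.05 in 14 of the 23, and the median was 0.29. Beside this count and those of the lists below, 3616 of all 13414 genes tested had an unadjusted p under 0.05. Knockout and wild type libraries did not overlap, with the knockout higher, in 20 of the 23, against 46.4% of all genes tested. The summed level of the 23 was 1110 and 1050 RPKM in wild type and 1240 and 1320 RPKM in the knockout. Against the median of 0.29, 5 of the 9 tested spermatogonial genes had a larger change and 4 a smaller one. Of 22 tested spermatocyte markers, 1 fell (Pgk2, -0.62; next Dmc1, 0.42, and Hormad1, 0.31, not called), with 7 at an unadjusted p under 0.05. Their median was 0.10, with a summed level of 2520 and 2890 RPKM in wild type and 2830 and 2620 RPKM in the knockout. Of 8 tested peritubular and endothelial markers 0 were called by limma, with 1 at an unadjusted p under 0.05 (Acta2, 0.31; next Pdgfra, 0.26, and Tagln, 0.28), a median of 0.23 and a summed level of 62.8 and 56.1 RPKM in wild type and 72.9 and 68.1 RPKM in the knockout. Of 6 tested macrophage and mast cell markers 0 were called by limma, with 0 at an unadjusted p under 0.05 (smallest p in Fcer1g, 0.26, Tyrobp, 0.61, and Mrc1, 0.13), a median of 0.12 and a summed level of 20.2 and 20 RPKM in wild type and 21.1 and 25 RPKM in the knockout.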

How the data were processed

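RNA from whole testes was sequenced after TruSeq library preparation, per the labels' protocols, in 2 wild type and 2 knockout libraries. Per the submitters' processing notes, bcl2fastq 2.17.1.14 and Bowtie2 were used, with mm9. Counter, annotation release and use of strand: not given in the sources used here. The authors deposited log2 RPKM values for 26127 entries. The 59 entries without a gene name (0.226%) were not used. Genes without reads carry about 0.9 of a read, so logarithms are finite. Depth was estimated from the value of 1 read in single-exon genes (among values of at most 10 reads, 95.9% to 97.7% were within 2% of a whole number), with lengths from Gencode M21.

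Genes with a mean of at least 0 log2 RPKM entered a two-sided limma test without pairing (limma 3.58.1, statmod 1.5.0, R 4.3.3, intensity trend and robust estimation); Benjamini-Hochberg adjusted p under 0.05 was a call. Levels are given per library, and folds come from differences between group means of log2 values, with no pseudocount added. Promoter windows are RefSeq's on GRCm38.p6, used for sequence only. Alternatives were other filters, a pseudocount, other scalings, a fit without trend, a replicate block and leaving out each library. The code was tested on simulated data. The genes and lists were chosen with earlier results of these data known. Named were the 10 genes, Adad2, the called genes and the 3 smallest p of each list. Also named were the 3 genes nearest to the gene with the smallest p, leaving out clone and predicted names. Of the called spermatid genes, which the rule also names, only those 3 are printed. Some genes that the rule names are not reported here.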

Additional observations from a re-analysis of the deposited data

How the results depend on the processing

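Under 13 alternatives, 1 of them added after the data were seen, the direction of the 9 tested genes held except as follows. With Sertoli cell medians equal, the log2 change was -0.20 for Zbtb16, -0.29 for Sall4, -0.078 for Uchl1, -0.019 for Kit, -0.21 for Sohlh2, -0.17 for Stra8, -0.0050 for Egr4 and -0.020 for Crabp1, since this scaling lowers every change by 0.40, the change of its middle marker, Espn. With Sertoli cell deviations equal, the added scaling, the shift was 0.29, and Zbtb16 was at -0.083, Sall4 at -0.18, Sohlh2 at -0.099 and Stra8 at -0.056, while the other 5 stayed above 0. With a library left out, Sall4 ranged from -0.20 (without knockout replicate 2) to 0.43 (without knockout replicate 1). Gfra1 stayed below 0, at -0.73 and -0.62 with Sertoli cell medians and deviations equal. Number of the 9 genes called: 0 in each alternative but the replicate block (5) and leaving out a library (0 to 2). Called higher over all genes were 97 without a filter, 26 with Sertoli cell medians equal, 36 with deviations equal, 1837 with the replicate block and 0 to 494 with a library left out, in place of 163. Called lower were 637 at a filter of a mean of 2, 3001 with Sertoli cell medians equal, 1926 with deviations equal, 1477 with the replicate block and 0 to 1308 with a library left out, in place of 959. Without wild type replicate 1, 0 genes were called and 2357 had an unadjusted p under 0.05. The share of calls that were higher was 25.7% at the stricter filter and 55.4% with the block, in place of 14.5%. Deviations of the same-numbered libraries correlated at 0.33 across genes, but the labels give the numbers no meaning, so the block is no paired design. The block called Uchl1 (limma adjusted p = 0.045), Kit (0.0102), Sohlh1 (0.00317), Egr4 (0.00529) and Crabp1 (0.00346). The median of the 9 genes stayed 0.13 to 0.28 above that of all genes with a library left out. A left-out library leaves a lone one in its group, assumed to vary like the other group. Zbtb16 and Sall4 gave no value at the filter of a mean of 2, and no gene had a second entry to use in its place. The cause of these changes beyond the shift itself was not tested.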

Other observations

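Egr3, listed with the genes of undifferentiated spermatogonia and with the relatives of Egr4, was chosen after its values were seen. Egr3, a zinc finger factor of the early growth response family, was at 1.68 and 0.85 log2 RPKM in wild type and at -1.14 and -2.11 in the knockout. Its mean over the 4 libraries was -0.18, so the filter kept it out of the test. Fitted without a filter, it fell 7.42-fold (log2 change -2.89, SE 0.46, 95% confidence interval -4.12 to -1.66, limma adjusted p = 0.049 over 26068 entries). That fit called 97 entries higher and 1078 lower. Both knockout libraries lay below both wild type libraries in Egr3. Egr4, in the same libraries, was at 2.29 and 2.45 in wild type and at 2.76 and 2.78 in the knockout.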
